A study of Ovis aries with 12 samples.

Results

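PLIN2, PLIN3, LIPE, FABP4, SOAT1, OLR1, ABCC3, ABCG8, ABCG1 and ABCA1 are genes of neutral lipid storage, cholesterol esterification, uptake of oxidized lipoprotein and export of sterols and other lipids by ABC transporters. They were chosen by name, with their values in non-pregnant against pregnant day 14 glands already known, and every probe set that the array annotation gave to 1 of these symbols alone was taken. Such probe sets were found for 8 of the 10 genes and numbered 12 of the 24016 probe sets that were not controls. ABCG1 and ABCA1 had none and are not analysed here. LIPE had 4 probe sets, FABP4 had 2 and the other 6 genes had 1 each. No filter on low values was applied, so all 12 probe sets stayed in, and the brightest probe set of a gene stands for it below.

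The values came from 12 sheep corpora lutea, 1 per ewe, hybridised to Affymetrix bovine expression arrays, so sheep RNA was read by probes designed on bovine sequence. The corpus luteum is the gland that forms in the ovary after ovulation and makes progesterone. Ewes of the pregnant groups had been put to a fertile ram. Those of the non-pregnant groups stayed unmated, and their heat was followed with a vasectomized ram. Glands were taken on day 12 or day 14, which gave 4 groups of 3 ewes, and no allele, drug or hormone treatment is named for any of them. Expression is given as the deposited log2 value, on which a step of 1 is a 2-fold change. Bulk RNA of a whole gland was measured, so fewer cells of a type and less RNA per cell cannot be told apart.

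Luteal cells take up cholesterol from lipoproteins, store what they do not use as cholesteryl esters in lipid droplets, and draw on that store for steroid synthesis. Perilipins coat the droplets, acyltransferases and lipases fill and empty them, scavenger receptors bring in modified lipoproteins, and ABC transporters move sterols, bile acids and conjugates across membranes. In a cycle without pregnancy the gland regresses and progesterone synthesis ends, whereas an embryo's signal keeps the gland in place.

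The arrays had medians of 5.16 to 5.24, and none had the same values as another. The labels use 1 array name for 4 arrays (batch A) and another name for 8 (batch B). Batch A held replicates 2 and 3 of the day 14 non-pregnant group and replicate 3 of each pregnant group, and all day 12 non-pregnant arrays were in batch B. The first principal component held 29.6% of the variance, with the day 14 non-pregnant arrays at 18.1, 33.7 and 40.4 and the other 9 arrays between -13.0 and -7.00. Each value after ± is the standard error of a log2 difference, taken from a linear model that fits the 4 group means and a batch term. A probe set is called where its Benjamini-Hochberg adjusted p in limma, over all 24016, was under 0.05.

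Among the genes of the droplet coat, PLIN2 was 6.09-fold higher in non-pregnant than in pregnant glands on day 14, while PLIN3 was lower but not called. PLIN2 encodes perilipin 2, a protein found on droplets of nearly all cells and a common marker of lipid load. It measured 9.64, 9.38 and 10.40 in replicates 1 to 3 of the day 14 non-pregnant group and 6.80, 7.03 and 7.30 in those of the day 14 pregnant group. On day 12 it measured 8.42, 6.75 and 6.98 without pregnancy and 6.73, 6.79 and 7.55 with it. The 3 day 14 non-pregnant glands were above all 9 others, and replicate 1 of the day 12 non-pregnant group stood above the rest of those 9. The difference was 2.61 ± 0.39 from day 14 pregnant glands and 2.11 ± 0.43 from day 12 non-pregnant glands. Group means ran from 7.02 on day 12 of pregnancy over 7.04 and 7.38 to 9.81, and the values of the lower 3 groups overlapped.

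PLIN3 encodes perilipin 3, which also coats early droplets and has a role in transport from endosomes. Its values were 7.04, 6.34 and 6.92 in day 14 non-pregnant glands and 7.46, 7.16 and 7.65 in day 14 pregnant glands. Day 12 values were 7.37, 7.64 and 7.90 without pregnancy and 7.64, 8.37 and 7.43 with it. All 3 day 14 non-pregnant glands were thus below the other 9, opposite to PLIN2, with a gap of 0.12 to the nearest pregnant gland of that day. The difference was -0.59 ± 0.25 from day 14 pregnant glands and -0.73 ± 0.28 from day 12 non-pregnant glands. Neither was called (adjusted p 0.300 and 0.340 in limma). Of all probe sets, 11.1% likewise had every day 14 non-pregnant value below the day 14 pregnant ones.

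LIPE and FABP4 are linked to the breakdown of stored lipid, and neither showed the separation seen for PLIN2. LIPE encodes hormone-sensitive lipase, which splits triglycerides, diglycerides and, in steroid-making cells, cholesteryl esters. Its brightest probe set measured 7.19, 6.97 and 7.13 in day 14 non-pregnant glands against 7.47, 7.29 and 7.30 in day 14 pregnant glands. On day 12 the values were 7.45, 7.30 and 7.23 without pregnancy and 8.05, 7.37 and 7.34 with it. The day 14 non-pregnant values were again below the other 9, but the gap was 0.094 to the pregnant group and 0.033 to the day 12 non-pregnant group. The difference was -0.19 ± 0.16 from day 14 pregnant glands and -0.097 ± 0.18 from day 12 non-pregnant glands. The other LIPE probe sets, with mean levels of 4.54, 3.92 and 3.83, differed by -0.11, -0.11 and 0.067 between the day 14 groups, and those groups overlapped in each of the 3.

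FABP4 encodes a cytosolic fatty acid carrier best known from adipocytes, and also made by macrophages and capillary endothelium. Its brighter probe set measured 5.57, 5.22 and 5.54 in day 14 non-pregnant glands and 5.52, 5.72 and 5.59 in day 14 pregnant glands. On day 12 it measured 6.55, 5.62 and 6.38 without pregnancy and 7.86, 5.45 and 5.31 with it. The day 14 groups overlapped with a difference of 0.010 ± 0.52, whose sign turned to -0.16 without the batch term and to -0.18 with batch as a random block. All 3 day 14 non-pregnant glands were below the day 12 non-pregnant ones, with a gap of 0.050. The difference between these groups was -0.39 ± 0.58, and -0.74 without the batch term. The other probe set had a mean level of 2.48, under the lower quartile of all probe sets (3.59, here called dim), and differed by 0.0046 between the day 14 groups.

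SOAT1 encodes the acyltransferase that joins cholesterol to a fatty acid for storage in droplets. Its probe set measured 7.46, 7.11 and 6.78 in day 14 non-pregnant glands and 6.44, 6.52 and 6.11 in day 14 pregnant glands. Day 12 values were 7.26, 6.64 and 6.70 without pregnancy and 7.23, 6.57 and 6.08 with it. The day 14 groups did not overlap, with a gap of 0.26, but replicates 2 and 3 of the day 14 non-pregnant group lay within the range of the day 12 values and replicate 1 was above it. SOAT1 was 1.93-fold higher in non-pregnant than in pregnant glands on day 14, with a difference of 0.95 ± 0.21. From day 12 non-pregnant glands the difference was 0.63 ± 0.23. Without the batch term these differences were 0.76, which was not called, and 0.25. All day 12 non-pregnant arrays were in batch B. The day 14 pregnant group had the lowest mean, 6.36, followed by the day 12 pregnant group at 6.63, the day 12 non-pregnant group at 6.87 and the day 14 non-pregnant group at 7.12, and each neighbouring pair in that order overlapped.

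OLR1 encodes LOX-1, a scavenger receptor for oxidized LDL that is made by endothelial cells, smooth muscle and macrophages. It had the widest day 14 difference of the 8 genes and the 4th largest absolute difference of all 24016 probe sets. The probe set measured 6.87, 8.61 and 8.57 in day 14 non-pregnant glands and 5.18, 5.50 and 3.94 in day 14 pregnant glands. Day 12 values were 4.99, 5.41 and 4.82 without pregnancy and 5.08, 5.51 and 4.70 with it. The day 14 non-pregnant glands were all above the other 9, with replicate 1 well below the other two, and replicate 3 of the day 14 pregnant group was the lowest of all. OLR1 was 9.02-fold higher than in day 14 pregnant glands (3.17 ± 0.50) and 8.03-fold higher than in day 12 non-pregnant glands (3.005 ± 0.55). The other 3 group means were 4.88, 5.07 and 5.10 and lay within each other's spread.

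ABCC3 and ABCG8 are both ABC transporters, and both set the day 14 non-pregnant glands apart. Their spread among the other arrays was less than that of the remaining genes described here. ABCC3 encodes MRP3, which carries bile acids and glucuronide conjugates, steroid conjugates among them, out of cells. Its probe set measured 9.49, 10.36 and 9.86 in day 14 non-pregnant glands and 7.79, 7.82 and 7.56 in day 14 pregnant glands. On day 12 it measured 7.89, 7.35 and 7.47 without pregnancy and 7.86, 7.50 and 7.60 with it. All 3 day 14 non-pregnant glands were above the other 9, which spanned 0.53 in all. ABCC3 was 4.42-fold higher than in day 14 pregnant glands (2.14 ± 0.21) and 4.81-fold higher than in day 12 non-pregnant glands (2.27 ± 0.24).

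ABCG8 encodes one partner of the ABCG5 and ABCG8 pair, which exports cholesterol and plant sterols in liver and gut. Its probe set measured 5.40, 5.53 and 5.42 in day 14 non-pregnant glands and 4.57, 4.50 and 4.40 in day 14 pregnant glands. Day 12 values were 4.41, 4.35 and 4.33 without pregnancy and 4.32, 4.38 and 4.49 with it. All 3 day 14 non-pregnant glands were above the other 9, with a gap of 0.83 to the pregnant glands of that day. ABCG8 was 1.94-fold higher than in day 14 pregnant glands (0.95 ± 0.092) and 2.11-fold higher than in day 12 non-pregnant glands (1.07 ± 0.10). The probe set's mean level of 4.68 was above that of 41.4% of probe sets. Its partner ABCG5 had no probe set of its own symbol and is not analysed here.

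**Figure D1:**
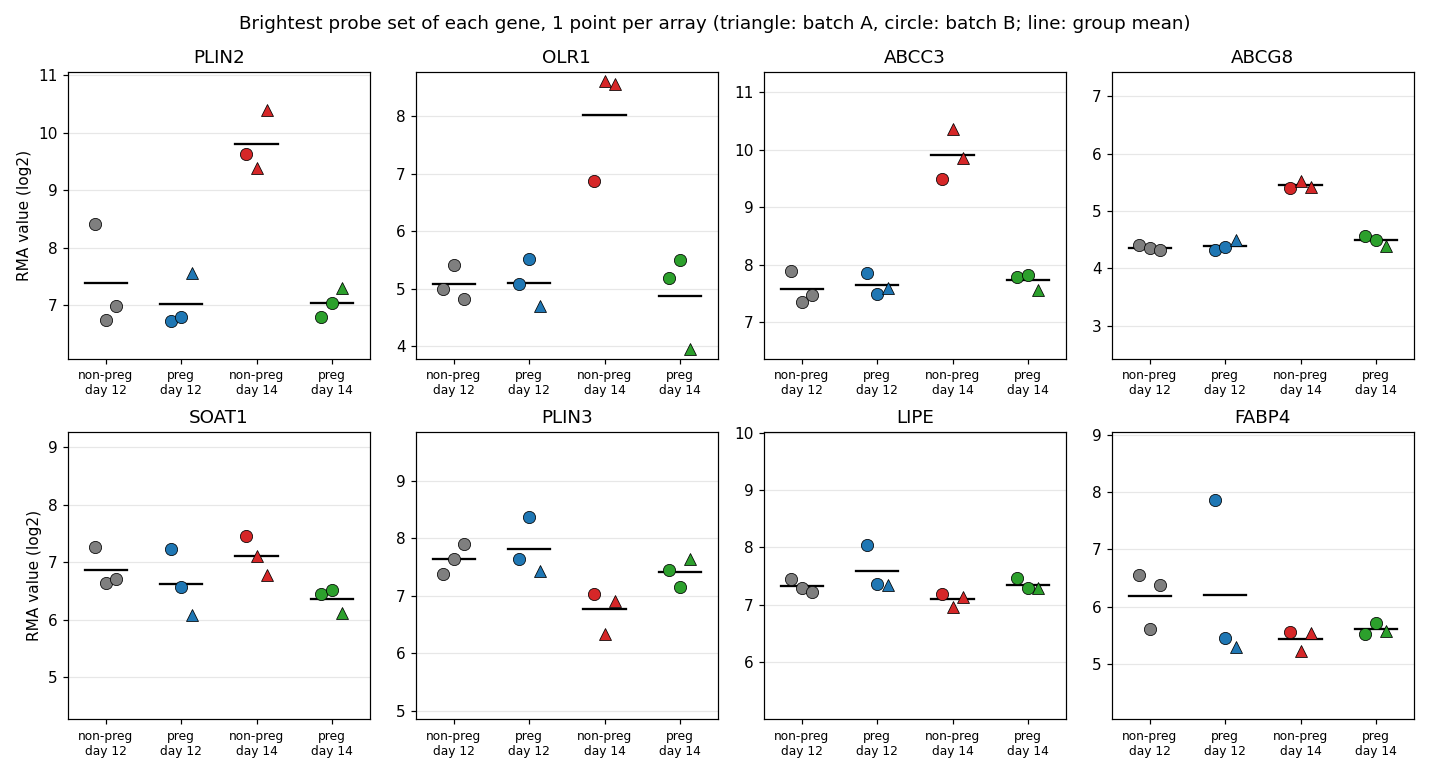
Deposited log2 RMA value of the brightest probe set of each of the 8 genes (y axis) in the 4 groups of 3 arrays (x axis), with triangles for batch A, circles for batch B and a line at each group mean. PLIN2, OLR1, ABCC3 and ABCG8 were higher in all 3 day 14 non-pregnant glands than in the other 9, PLIN3 and LIPE were lower in all 3, and FABP4 varied most on day 12.

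Of the 12 probe sets, 5 were called higher in non-pregnant than in pregnant day 14 glands, those of PLIN2, OLR1, ABCC3, ABCG8 and SOAT1, and 0 were called lower. Over all probe sets 0.912% were called higher and 0.537% lower. The groups did not overlap for 5 probe sets that were higher, the same 5, and for 2 that were lower, PLIN3 and LIPE, against 7.15% higher and 11.1% lower over all probe sets. Because the genes were picked with this comparison known, the counts are a description and nothing is read from them. Of these differences, SOAT1's was closest to the threshold and was called in 2 of 12 fits that left out 1 array. It was called in 4 of 10 other alternative fits, and not in the fit without the batch term. Without replicate 3 of the day 14 pregnant group, 2 of the 5 were still called (ABCC3 and ABCG8), PLIN2 had a difference of 2.54 and OLR1 one of 2.30.

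Day 14 was also set against day 12 within the non-pregnant ewes, which shares its day 14 arrays with the comparison above and is likewise a description. OLR1, ABCC3 and ABCG8 were called higher on day 14 and 0 probe sets were called lower, where 0.291% of all probe sets were called higher and 0.0999% lower. The groups did not overlap for 4 probe sets that were higher on day 14, with PLIN2 added, and for 4 that were lower, those of PLIN3 and LIPE and both of FABP4, against 7.67% and 12.1% over all. PLIN2 was called without replicate 1 of the day 12 non-pregnant group, its high array, with a difference of 2.62, and without replicate 2 of the day 14 non-pregnant group (2.32). It was also called without the batch term (2.42) and with batch as a random block (2.45). OLR1 was called in 2 of 12 fits that left out 1 array, those without replicate 1 or replicate 2 of the day 14 non-pregnant group, with differences of 4.51 and 2.78. The change from day 12 to day 14 was itself compared between non-pregnant and pregnant ewes, and this interaction was called for ABCC3 and ABCG8, against 0.0874% of all probe sets, again with nothing read from it since it holds the same arrays.

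**Figure D2:**
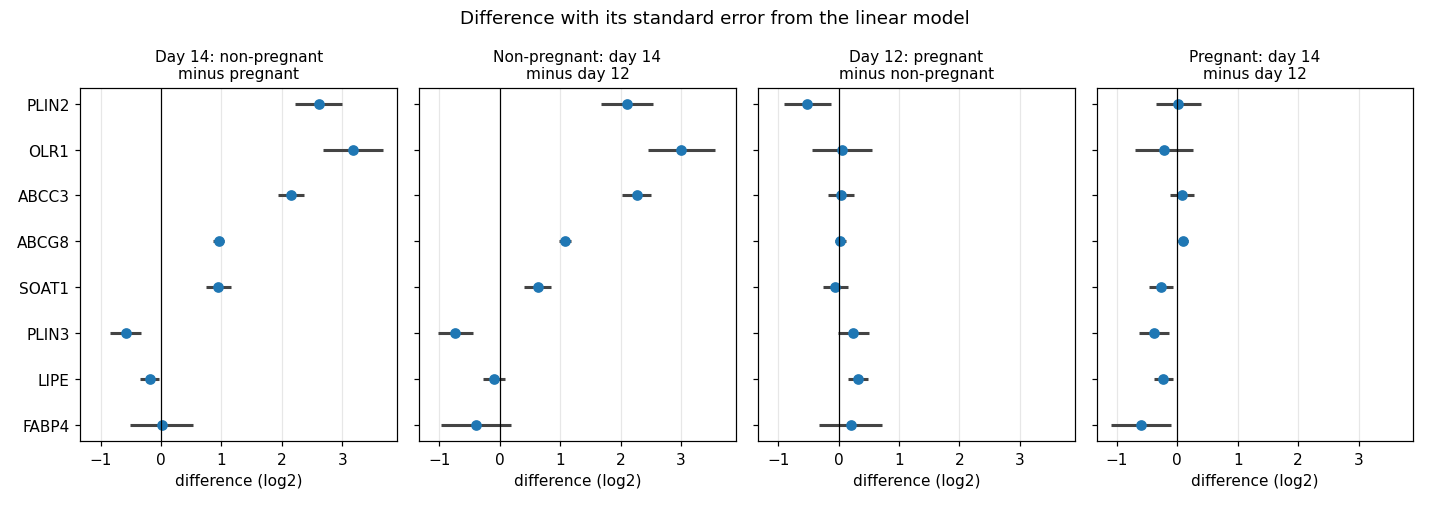
Log2 difference (x axis) of each gene's brightest probe set (y axis) in the 4 comparisons, with bars for the standard error of the linear model over 12 arrays. PLIN2, OLR1, ABCC3, ABCG8 and SOAT1 lie above 0 in both comparisons with day 14 non-pregnant glands, and no gene was called in the comparisons of day 12 groups or of pregnant groups.

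Pregnant and non-pregnant glands of day 12 were compared next. The genes were not chosen on this comparison, although the day 14 arrays enter the fit through the batch term and the spread, and OLR1's day 12 difference ranged from -0.17 to 0.35 as single day 14 arrays were left out. None of the 12 probe sets was called in limma, and 0 had an unadjusted p under 0.05, where 0% of all probe sets were called and 7.69% had such a p. PLIN2 differed by -0.52 between pregnant and non-pregnant glands, with a 95% interval of -1.37 to 0.33, and by -0.00012 without replicate 1 of the non-pregnant group. LIPE, which had the smallest p of the 8, differed by 0.33 (-0.029 to 0.68), with an adjusted p of 0.681 in limma, and by 0.072 without replicate 1 of the pregnant group. The narrowest interval was that of ABCG8, at -0.18 to 0.23 around 0.027. ABCC3 differed by 0.046 (-0.42 to 0.52). OLR1 differed by 0.052 (-1.04 to 1.14), SOAT1 by -0.051 (-0.50 to 0.40) and PLIN3 by 0.24 (-0.32 to 0.80). For FABP4 the difference of 0.20 (-0.94 to 1.34) rested on replicate 1 of the pregnant group and was -0.75 without it. The intervals were widest for FABP4 and OLR1, so small differences of these genes were not detectable here.

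Between day 12 and day 14 of pregnancy, 0 of the 12 probe sets were called in limma and 0 had an unadjusted p under 0.05, against 0% and 4.43% of all probe sets. The day 14 pregnant arrays were also the comparator in the choice of genes. PLIN2 differed by 0.018 (95% interval -0.80 to 0.84), ABCC3 by 0.076 (-0.37 to 0.53) and ABCG8 by 0.093 (-0.10 to 0.29). OLR1 differed by -0.22 (-1.27 to 0.83), SOAT1 by -0.27 (-0.70 to 0.16), PLIN3 by -0.39 (-0.93 to 0.15) and LIPE by -0.23 (-0.57 to 0.11). FABP4 differed by -0.60 (-1.69 to 0.50). Without replicate 1 of the day 12 pregnant group the difference was 0.21 for FABP4, -0.016 for LIPE and -0.045 for SOAT1. Adjusted p-values in limma lay between 0.992 and 0.999, so no change was detectable with 3 arrays a group, and the intervals reach 0.84 for PLIN2 and -1.27 for OLR1.

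The genes varied to different degrees among the 9 arrays outside the day 14 non-pregnant group. FABP4 spanned 2.56 log2 units there, a range that only 0.162% of all probe sets matched or exceeded. PLIN2 spanned 1.69 (0.883% as wide), OLR1 1.56 (1.13%), PLIN3 1.21 (2.57%), SOAT1 1.18 (2.80%) and LIPE 0.82 (8.74%). The transporters were steadier, ABCC3 at 0.53 (33.0%) and ABCG8 at 0.25 (91.5%). Some glands had their group's highest value for several of these genes. This is a description, as each gene is highest in some gland of its group. In replicate 1 of the day 12 pregnant group FABP4 (7.86), LIPE (8.05), SOAT1 (7.23) and ABCC3 (7.86) were highest, and PLIN2 (6.73) and ABCG8 (4.32) were lowest. In replicate 1 of the day 12 non-pregnant group PLIN2 (8.42), SOAT1 (7.26), LIPE (7.45), FABP4 (6.55), ABCC3 (7.89) and ABCG8 (4.41) were highest, and PLIN3 (7.37) was lowest. LPL, which encodes lipoprotein lipase and was picked out after its values were seen, measured 8.61 and 9.42 in these glands, the 2 highest of the 12. LPL was nearly as high in replicates 2 and 3 of the day 14 pregnant group, at 8.52 and 8.44, where FABP4 measured 5.72 and 5.59.

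Since batch A held only pregnant day 12 and day 14 arrays of both states, the day 14 difference was computed within each batch, with 2 non-pregnant arrays and 1 pregnant array in A and 1 against 2 in B. PLIN2 differed by 2.60 in batch A and 2.72 in batch B, SOAT1 by 0.83 and 0.98, and ABCG8 by 1.08 and 0.87. ABCC3 differed by 2.55 in batch A and 1.68 in batch B. For OLR1 the values were 4.65 in A and 1.53 in B, since the low pregnant array and both of the highest non-pregnant arrays were in A. PLIN3 differed by -1.02 and -0.27, LIPE by -0.25 and -0.18, and FABP4 by -0.20 and -0.054. Each of the 8 genes had the same direction in both batches, and its size differed between them by over 1.5 times for OLR1, ABCC3, PLIN3 and FABP4. For FABP4 the linear model's day 14 difference of 0.010 had the opposite sign to both. It was -0.12 without replicate 1 of the day 12 pregnant group, which enters this difference through the batch term. For non-pregnant ewes, day 14 could be set against day 12 only in batch B, on 1 day 14 array, where PLIN2 differed by 2.25, OLR1 by 1.80, ABCC3 by 1.92 and ABCG8 by 1.04.

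**Figure D3:**
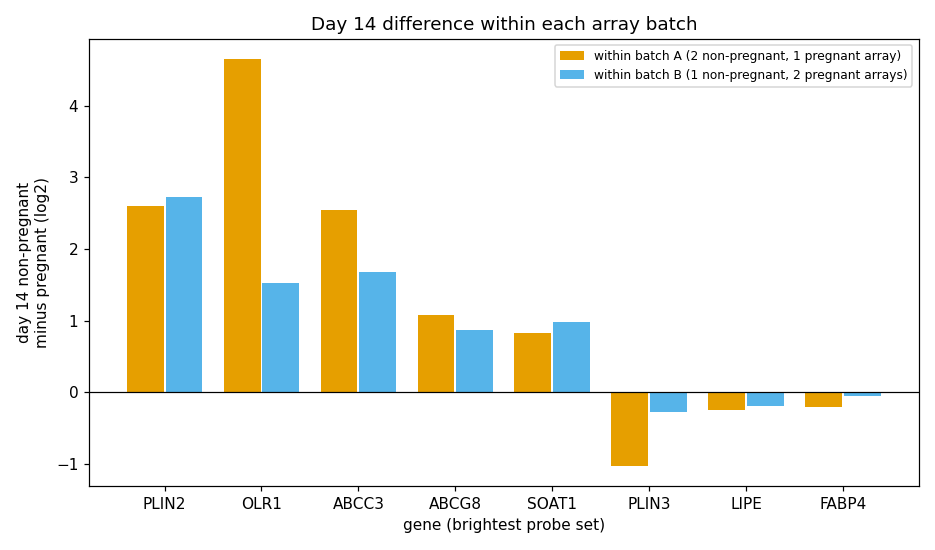
Log2 difference between non-pregnant and pregnant day 14 glands (y axis) within batch A and within batch B for each gene's brightest probe set (x axis), with no error bars because each batch holds a group of 1 array. The bars of a gene point the same way in both batches, at 4.65 and 1.53 for OLR1 and at 2.60 and 2.72 for PLIN2.

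Macrophages and adipocytes also express several of these genes, so their marker genes were read from the same arrays. Of 15 measured macrophage markers of 19, 0 were called between the day 14 groups and 9 differed upward, with a median difference of 0.13 beside -0.026 over all 9155 genes. The mean log2 level of these markers was 6.10, 6.83 and 6.98 in day 14 non-pregnant glands, 6.19 to 6.65 in day 14 pregnant glands, 6.01 to 6.44 in day 12 non-pregnant glands and 6.24 to 6.34 in day 12 pregnant glands. CD86 and ITGAM were dim. CD68, a lysosomal protein of macrophages, measured 6.47, 7.73 and 7.60 in day 14 non-pregnant glands, and MSR1, a macrophage scavenger receptor, measured 5.23, 6.41 and 6.39. CSF1R, the receptor for the macrophage growth factor, measured 7.56, 7.71 and 8.21, and VSIG4, a complement receptor of resident macrophages, 4.49, 5.01 and 5.30, both lower on average than in day 14 pregnant glands. CD68, MSR1, CSF1R, VSIG4 and all other measured markers except ITGAM were higher in replicates 2 and 3 than in replicate 1. OLR1, ABCC3 and ABCG8 were too, whereas SOAT1, PLIN3, LIPE and FABP4 were highest in replicate 1 and PLIN2 lay in between. The first principal component over all probe sets also differed, at 18.1 in replicate 1 and 33.7 and 40.4 in replicates 2 and 3. Replicates 2 and 3 were in batch A and replicate 1 was in batch B. In replicate 1 the marker mean of 6.10 was below that of all 3 day 14 pregnant glands. CSF1R, C1QA, C1QB, C1QC and VSIG4 were each the lowest of the 12 arrays there, and AIF1 and TYROBP the 11th highest. CD14 at 6.07 and LAPTM5 at 8.43 were each the 4th highest. ITGAM was the 5th highest, MSR1 and CD86 the 7th, and CD68, FCGR3A and CTSS the 9th. PLIN2, OLR1, ABCC3 and ABCG8 in replicate 1 were above their values in every pregnant gland, as they were in replicates 2 and 3. The ranks in replicate 1 are those of 1 array, and the part of macrophages in any of these differences was not tested.

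Of the adipocyte list, 9 genes other than LIPE and FABP4 were measured and 0 were called between the day 14 groups. Their mean level was 4.64 to 4.68 in day 14 non-pregnant, 4.70 to 5.01 in day 14 pregnant, 4.65 to 5.04 in day 12 non-pregnant and 4.80 to 4.95 in day 12 pregnant glands, with ADIPOQ, CIDEC and PCK1 dim. In replicate 1 of the day 12 pregnant group, where FABP4 was highest, ADIPOQ measured 3.42, the 7th highest of the 12 arrays, and the hormone gene LEP 4.31, the 2nd highest. AQP7 and GPD1, a glycerol channel and a glycerol phosphate dehydrogenase, were the 12th and 10th highest there. Of the rest of the list, RETN was the highest of the 12 arrays there, LPL the 2nd, PCK1 the 3rd, ACACB the 4th and CIDEC the 7th highest. The list mean of 4.95 in this gland was the highest of its group. The steroidogenic luteal list checks the labelled tissue. Its 13 measured genes averaged 8.88, 8.53 and 8.56 in day 14 non-pregnant glands and 8.96 to 9.12 in the other 9, and of these 2 were called lower than in day 14 pregnant glands, STAR and NR5A2. Of the remaining lists, endothelial markers had 2 of 15 called lower (TIE1 and CD34), smooth muscle markers 1 of 10 higher (CNN1), and fibroblast and T and NK cell markers 0 of 10 and 0 of 11. The part of these cells in the lipid genes' differences was not tested.

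The wider pathways were described from 6 lists that leave out the 8 genes and together have 95 measured genes. Among 21 measured of 31 genes of droplet coat, storage and lipolysis, 1 was called higher in non-pregnant than in pregnant day 14 glands and 0 lower, with a median difference of 0.0033. That gene was HSD17B11, a droplet-associated short-chain dehydrogenase, which averaged 7.17 against 5.72 and differed by 1.31 ± 0.16 (adjusted p 0.00335 in limma). Against day 12 non-pregnant glands, at 5.62, it differed by 1.27 ± 0.18 (adjusted p 0.0120). Of the droplet genes measured here, HSD17B11 and PLIN2 were the ones called on day 14, and the list as a whole stayed near the median of all genes.

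Of 7 measured of 8 genes of sterol esterification and ester hydrolysis, 1 was called higher and 0 lower on day 14, with a median of -0.00078. LCAT, which esterifies cholesterol on lipoproteins outside cells, averaged 9.03 in non-pregnant and 8.18 in pregnant glands and differed by 0.91 ± 0.13 (adjusted p 0.00724 in limma). It differed by 0.82 ± 0.14 from day 12 non-pregnant glands, which averaged 8.34 (adjusted p 0.0386). The second acyltransferase gene, SOAT2, differed by -0.21 ± 0.17 on day 14, so the difference seen for SOAT1 was not matched in SOAT2. NCEH1, a cholesteryl ester hydrolase, differed by -0.41 ± 0.17 (adjusted p 0.284).

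None of 14 measured of 23 lipoprotein and scavenger receptors was called on day 14, with a median of -0.16. SORL1, a sorting receptor of the LDL receptor family, differed by -0.85 ± 0.20 (adjusted p 0.0605 in limma), and SCARB1, the HDL receptor that supplies luteal cells with cholesterol, by -0.45 ± 0.13 (adjusted p 0.128). The values of SORL1 and SCARB1 lie on the opposite side of 0 from OLR1, whereas 5 of the 14 receptors lie above 0 as OLR1 does. None of 15 measured of 38 other ABC transporters was called, with a median of -0.087. ABCG2, an exporter of conjugates and drugs, had the smallest p at 1.04 ± 0.33 (adjusted p 0.152), followed by ABCC8, a dim probe set, at -0.23 (adjusted p 0.224).

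Of 22 measured of 25 sterol and fatty acid sensing receptors and their targets, 0 were called on day 14, with a median of 0.050. UCP2, a mitochondrial carrier, differed by 0.52 ± 0.13 (adjusted p 0.0811 in limma) and SREBF2, the transcription factor of cholesterol synthesis, by -0.43 ± 0.12 (adjusted p 0.105). Of 16 measured of 20 fatty acid binding proteins and sterol carriers, 0 were called higher and 1 lower, with a median of -0.27. The lower gene was STAR, which moves cholesterol into mitochondria for steroid synthesis, at 12.35 against 13.12 and -0.74 ± 0.13 (adjusted p 0.0245). FABP5, another fatty acid carrier, differed by 1.02 ± 0.25 (adjusted p 0.0793). Between day 14 and day 12 of non-pregnant ewes, HSD17B11 and LCAT were the 2 genes of these lists that were called, and in the comparison of day 12 groups and that of pregnant groups 0 genes of any list were called.

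**Figure D4:**
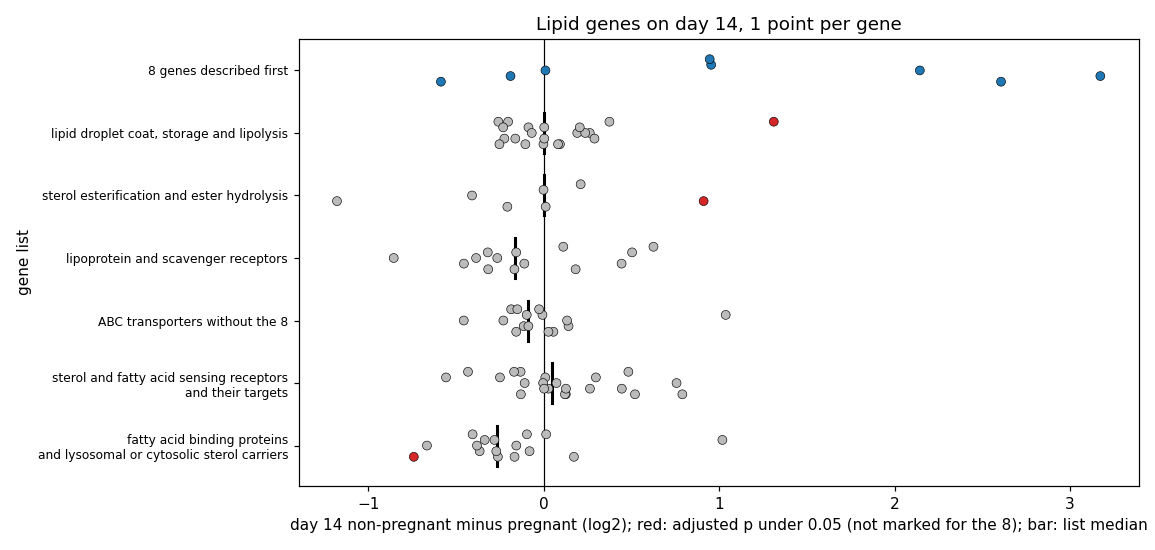
Log2 difference between non-pregnant and pregnant day 14 glands (x axis) for the 8 genes (blue) and for the measured genes of 6 pathway lists (y axis), 1 point per gene, with red for an adjusted p under 0.05 and a bar at each list's median. Calls are not marked for the 8 genes, of which PLIN2, OLR1, ABCC3, ABCG8 and SOAT1 were called higher. In the lists, HSD17B11 at 1.31 and LCAT at 0.91 are the called genes above 0 and STAR at -0.74 is the called gene below 0. The list medians lie between -0.27 and 0.050.

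Genes with the most similar pattern were sought for the 3 genes with the widest day 14 difference, as the mean absolute distance over the 12 arrays after each of 9020 genes was centred on its own mean. For OLR1 the nearest were F2RL1, a protease-activated receptor, at 0.41, CRYAB, a small heat shock protein, at 0.50 and TIMP3, a metalloproteinase inhibitor, at 0.52, where OLR1's own mean distance from its centre was 1.13. For PLIN2, at 1.10 itself, they were F2RL2, another receptor of that family, at 0.34, MAP1LC3C, an autophagy protein, at 0.46 and F2RL1 at 0.46. For ABCC3, at 0.85 itself, they were CRYAB at 0.20, F2RL2 at 0.22 and the cadherin gene CDH1 at 0.26. All of these were higher in day 14 non-pregnant than in pregnant glands, CRYAB by 2.08 and F2RL2 by 2.40. That direction follows from picking them by closeness to genes with a wide day 14 difference, and is no separate result. Among the 8 genes, ABCC3 was the nearest to OLR1 (0.49) and to PLIN2 (0.48), and ABCG8 was the nearest to ABCC3 (0.46). The distances are a description over 12 arrays that share the same 4 groups.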

How the data were processed

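Per the submitters' processing notes, the authors made the deposited log2 values with RMA in Affymetrix Expression Console; its version was not given in the sources used here. The values carry no detection calls, and probes that mismatch sheep RNA read low, so levels of different probe sets were not compared as amounts. Groups came from the source label; the titles conflict with it for 9 of 12 arrays. Replicate numbers follow accession order and pair nothing. After leaving out 112 control probe sets, 24016 were tested with limma 3.58.1 in R 4.3.3 (group means plus batch, all 12 arrays, 7 residual and 4.39 prior degrees of freedom, two-sided, Benjamini-Hochberg over all, threshold 0.05). The script was tested on simulated data. The platform annotation gave 13292 probe sets exactly 1 symbol, 86 several and 10638 no symbol; these bovine symbols can be old. The genes and lists were chosen with earlier results of these data known. Every chosen gene is named, with up to 4 called genes per list, otherwise, for day 14, the 2 with the smallest p; SOAT2, NCEH1, FABP5, LPL and the marker genes given with values were singled out after their values were seen. The number of arrays limits the precision. Alternatives changed the batch term, arrays, dim filter, centring, normalization, weights, prior and probe set summary.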

Additional observations from a re-analysis of the deposited data

Results flagged for a closer look

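ABCC3 and ABCG8 stood out because their change from day 12 to day 14 differed between non-pregnant and pregnant ewes. ABCC3 differed by 2.27 between the days without pregnancy and by 0.076 with it, and the gap between these differences was 2.19 ± 0.31. ABCG8 differed by 1.07 and 0.093, and the gap was 0.98 ± 0.14. Of all probe sets, 0.0874% passed this interaction term in limma. It contains the day 14 non-pregnant arrays by which the genes were chosen, so the values are a description. The gap was 3.22 ± 0.73 for OLR1, 2.09 ± 0.57 for PLIN2 and 0.90 ± 0.30 for SOAT1, and none of these 3 passed.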

How the results depend on the processing

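The count of probe sets called between the day 14 groups was 5, fell to 2 with only the 6 arrays compared and to 3 with batch B arrays only, and ranged from 2 to 5 when 1 array was left out. Between the days of non-pregnant ewes it was 3, became 0 with only the arrays compared, and ranged from 2 to 4 when 1 array was left out. On day 12 and between the days of pregnancy it was 0 under all alternatives. FABP4's day 14 difference reversed to -0.16 without a batch term, -0.18 with batch as a random block, -0.13 with only the arrays compared and -0.054 in batch B. On day 12, SOAT1 reversed to 0.034 and ABCG8 to -0.011, both with only the arrays compared and in batch B, and OLR1 between the pregnant days reversed to 0.051 in batch B. With 1 array left out, FABP4 ranged from -0.13 to 0.34 on day 14. Day 12 ranges that crossed 0 were -0.065 to 0.40 for PLIN3, -0.75 to 0.79 for FABP4, -0.31 to 0.15 for SOAT1, -0.19 to 0.35 for OLR1, -0.11 to 0.20 for ABCC3 and -0.011 to 0.069 for ABCG8. Between the pregnant days they were -0.064 to 0.18 for PLIN2, -1.11 to 0.21 for FABP4, -0.54 to 0.43 for OLR1 and -0.014 to 0.25 for ABCC3. The cause of these changes was not tested. Of 788 values under alternatives, 708 kept their direction and side of the threshold, or, for counts, stayed within 1.5 times. Centring, renormalizing, array weights, the prior and the dim filter reversed none.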
